A study of Mus musculus with 12 samples.

Results

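The 10 genes described here are Trp53 and 9 genes of its stress and growth-arrest response: Cdkn1a, Mdm2, Ccng1, Trp53inp1, Bax, Bbc3, Gdf15, Sesn2 and Phlda3. They were taken by symbol from 45859 genes in the deposited tables, all 10 were found, and all 10 passed the filter on low values in every comparison. The study removed the fiber cells from mouse lenses, as in cataract surgery. It measured RNA from the lens capsules, with the lens epithelial cells (LCs) left on them, right after surgery (0 h) and 24 h post cataract surgery (PCS). WT LCs (C57BL/6) were compared with LCs of mice lacking β8 integrin from the lens (β8ITG-cKO, mixed C57BL/6 and 129S1/Sv), all from adults aged 2 months, with 3 libraries in each of the 4 groups and 12 in all. In β8ITG-cKO lenses a floxed exon of Itgb8 was removed by the lens-specific MLR10-Cre transgene, so the allele was changed in lens cells and not in other cells that stayed on a capsule. Each library was made from pooled capsules, and the labels call the libraries biological triplicates. The groups also differed in strain, so genotype and strain cannot be told apart in these data.

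p53, the protein of Trp53, is a transcription factor that is held low by the ubiquitin ligase Mdm2 and is stabilized when DNA damage or other stress is sensed. It then raises the transcription of genes that stop the cell cycle, such as Cdkn1a, genes that promote apoptosis, such as Bax and Bbc3, and genes that lower growth signals or oxidative stress, such as Phlda3 and Sesn2. Much of p53 control acts on the protein, which was not measured here, and several of these genes also respond to other stress pathways. In the lens, the epithelium is a mostly quiescent layer that is driven to respond, divide and change fate once the fiber cells are taken out.

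p53 binds DNA at the p53 decamer, a 10-base unit made of a run of purines, C, a pair of A or T bases, G and a run of pyrimidines, usually as 2 units close together. RefSeq start regions (GRCm38.p6, 250 bases before to 50 bases after each annotated start) were found for 9 of the 10 genes, in 13 windows, and not for Trp53inp1. A decamer was present in 5 of the 13 windows and in 5 of the 9 genes, against 2745 of 32851 windows (8.36%) and 9.55% of genes overall. The motif reads the same on both strands, and these genes were chosen partly as p53 targets, so the shares are a description. Of the 13 windows only the first window of Cdkn1a held 2 decamers within 13 bases of each other, an arrangement present in 24 windows in all (0.0731%). The stretches around each match are shown because they set Cdkn1a, whose log2 difference over time in β8ITG-cKO LCs was the largest of the 10, beside Trp53, Mdm2 and Bax and beside Ccng1, which was not called in any of the 5 comparisons. In WT LCs the largest difference was that of Phlda3 (1.93, against 1.42 for Cdkn1a), whose window held no decamer. A link between decamers and changes was not tested. Capitals mark the decamers, and positions count from the annotated start on which each window was placed. That start can differ from the end of the RefSeq gene, as for Trp53 (69580359 against 69580348).
Cdkn1a: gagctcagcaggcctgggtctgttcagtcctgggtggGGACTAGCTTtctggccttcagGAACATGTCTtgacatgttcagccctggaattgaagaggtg
Trp53: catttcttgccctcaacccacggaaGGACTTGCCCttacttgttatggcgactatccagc
Mdm2: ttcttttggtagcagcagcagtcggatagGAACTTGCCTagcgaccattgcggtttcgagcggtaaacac
Ccng1: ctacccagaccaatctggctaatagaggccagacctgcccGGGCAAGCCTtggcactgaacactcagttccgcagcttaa
Bax: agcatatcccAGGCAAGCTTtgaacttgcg

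The Cdkn1a stretch is chr17:29090869-29090968 on the plus strand, with decamers starting at -73 and -51. That of Trp53 is chr11:69580259-69580318 on the plus strand (decamer at -75), and that of Mdm2 is chr10:117710904-117710973 on the minus strand (-186). The Ccng1 stretch is chr11:40755432-40755511 on the minus strand (-185), and the Bax stretch is chr7:45467080-45467109 on the minus strand (-201). None overlapped an annotated exon in GENCODE, although the Bax locus in the deposited tables runs on to 45468205 and so includes its stretch. The windows of Phlda3, Sesn2, Bbc3 and Gdf15 and the second window of Cdkn1a held no decamer, which says only that these letters are not in these windows.

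FPKM (fragments scaled to transcript length and to the number mapped) were given per library, with sums of 446531 to 740140 and relative depths of 0.87 to 1.09, and as read totals were not used here, counting precision is unknown. Itgb8 itself was at 7.26 to 10.78 FPKM in WT 0 h, 9.08, 8.38 and 9.58 in WT 24 h, 4.58 to 7.31 in β8ITG-cKO 0 h and 9.28 to 11.83 in β8ITG-cKO 24 h, so its gene-level FPKM did not separate the genotypes (adjusted p = 0.209 at 0 h and 0.486 at 24 h). The 8 lens epithelium markers summed to 11600 to 43200 FPKM per library and each was above 0 in every library with 1 exception: for WT 0 h replicate 2 (sum 13600) the deposited Cryaa value is 0, against 28166.6 and 24295.6 FPKM in the other WT 0 h libraries. Nearly all of each sum was Cryaa and Cryab (28166.6 and 11799.6 of 40400 FPKM in WT 0 h replicate 1). No other marker of the list passed 172.17 FPKM in any library, so the sum follows these crystallins. Marker sums moved with the groups. The 8 lens fiber markers summed to 3880 to 5650 FPKM at 0 h and 640 to 1290 at 24 h, and the 7 neutrophil markers went from at most 1.69 FPKM at 0 h to 17.6 to 73.1 at 24 h, with Ly6g at 0 throughout. The 10 retina markers summed to 864 to 1030 FPKM in β8ITG-cKO 24 h against 77.6 to 145 in WT 24 h, and to 1210 in WT 0 h replicate 2 against 146 and 359 in the other WT 0 h libraries. The 5 red blood cell markers summed to 6.52 to 15.8 FPKM in β8ITG-cKO 0 h against 68.0 to 153 in WT 0 h. The part of these cells in the results that follow was not tested, and in such bulk samples fewer cells of a type and less RNA per cell cannot be told apart.

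**Figure D1:**
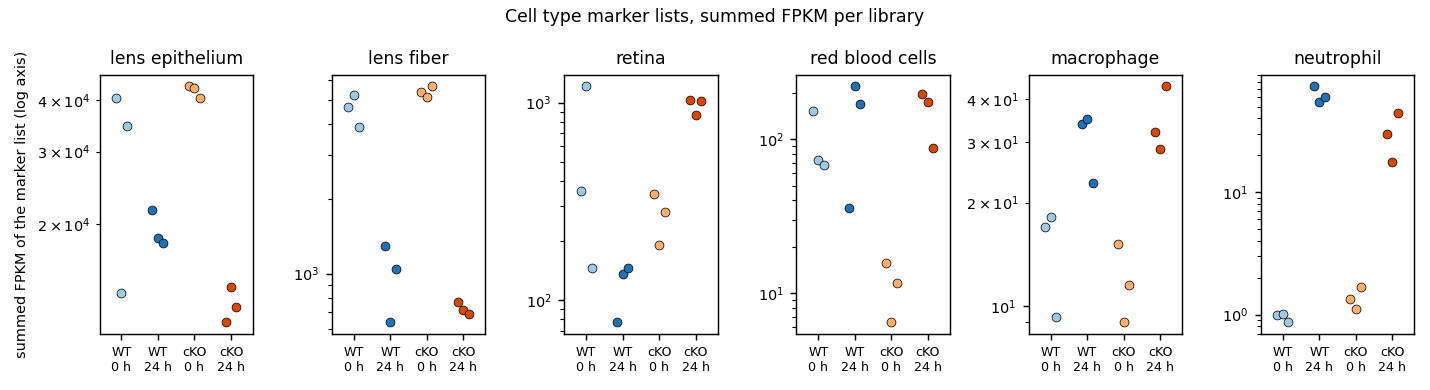
Summed FPKM of 6 cell type marker lists in each of the 12 libraries, on a log axis with 3 points per group. Lens fiber sums lie at 3880 to 5650 at 0 h and at 640 to 1290 at 24 h in both genotypes, while retina sums are 864 to 1030 in β8ITG-cKO 24 h against 77.6 to 145 in WT 24 h.

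The first comparison asks how these genes changed in the first day after surgery in WT LCs. With limma on log2(FPKM + 1), 5 of the 10 rose (Phlda3, Cdkn1a, Sesn2, Bax and Trp53), 1 fell (Trp53inp1) and 4 did not pass the test (Mdm2, Bbc3, Ccng1 and Gdf15). Of the 15146 genes tested in WT, 29.7% were called, 20.9% as higher and 8.81% as lower at 24 h. All 6 called genes also met the study's criteria of a fold over 2 with means more than 2 FPKM apart and 1 of them at 2 FPKM or more, which 14.3% of tested genes met. WT 0 h and WT 24 h libraries did not overlap for 7 of the 10, against 46.9% of tested genes. The median log2 difference was 0.73 over the 10 genes and 0.16 over all tested genes.

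The same question in β8ITG-cKO LCs gave 7 rises (Cdkn1a, Phlda3, Trp53, Gdf15, Sesn2, Bax and Mdm2), 1 fall (Trp53inp1) and 2 genes that did not pass (Bbc3 and Ccng1). Here 46.1% of the 15237 tested genes were called, 35.4% as higher and 10.7% as lower. The criteria were met by 4 of the 10 (Cdkn1a, Phlda3, Trp53 and Trp53inp1), against 15.1% of tested genes. Groups did not overlap for 8 of the 10, against 56.9% of tested genes. Gdf15 is 1 of these 8 only by digits beyond 2 decimals, as its highest 0 h and lowest 24 h libraries were both at 1.01 FPKM. The median was 0.76 over the 10 genes and 0.23 over all tested genes. Over the same comparison all 10 retina markers (median 1.77), all 5 red blood cell markers (median 3.15) and all 6 tested neutrophil markers were called higher, and their part in these changes was not tested. An exact permutation test of 3 against 3 libraries cannot go below p = 0.1, so calls on single genes rest on the fit across all genes.

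**Figure D2:**
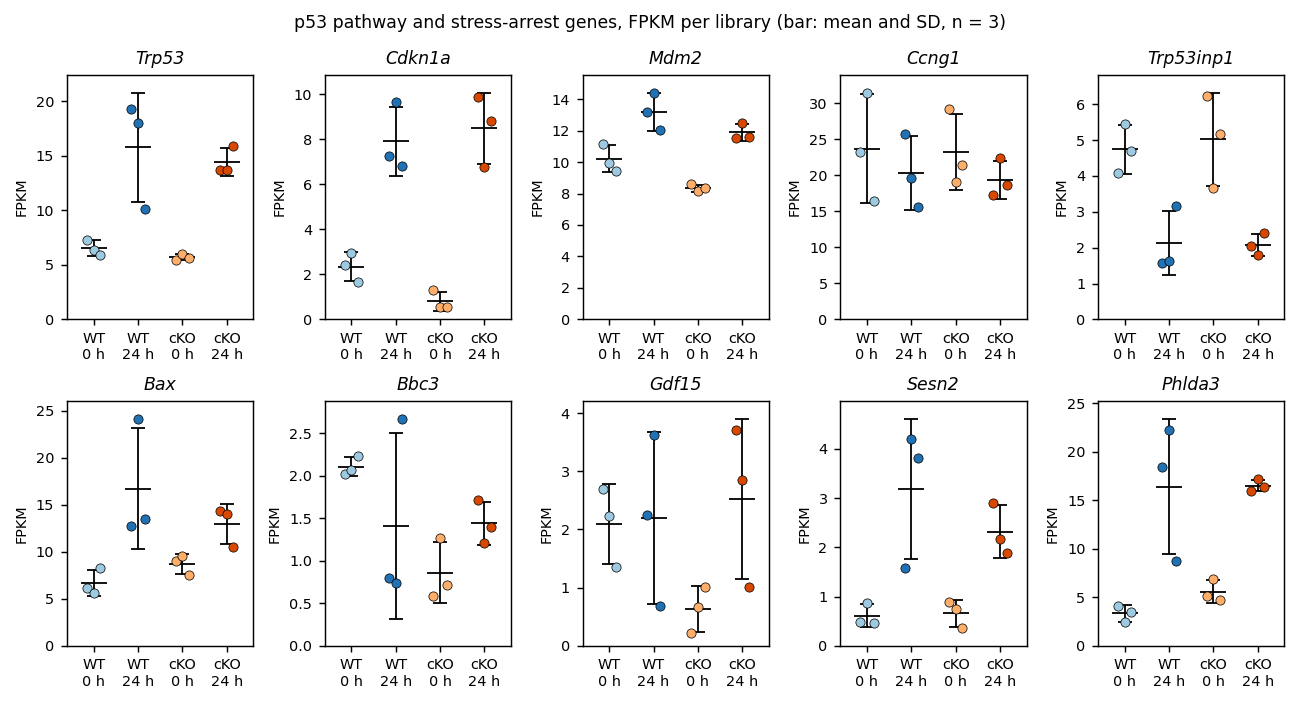
FPKM of the 10 genes in each library (points), with the group mean and SD (bars, n = 3), for both genotypes at both times PCS. Trp53, Cdkn1a, Mdm2, Bax, Sesn2 and Phlda3 are higher in all 24 h libraries than in all 0 h libraries of either genotype, by a small step for Mdm2 and Bax. Trp53inp1 is lower, and Ccng1 overlaps between all groups.

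Trp53 encodes p53 itself, on chromosome 11 from 69580348 to 69591873. It was at 7.31, 6.41 and 5.88 FPKM in WT 0 h, 19.34, 18.04 and 10.11 in WT 24 h, 5.47, 6.01 and 5.65 in β8ITG-cKO 0 h, and 13.68, 13.67 and 15.90 in β8ITG-cKO 24 h. Every 24 h library was above every 0 h library, with WT 24 h replicate 3 the lowest of them. The mean rose from 6.54 ± 0.724 to 15.8 ± 5.0 FPKM in WT (SD, n = 3; log2 difference 1.11, SE 0.24, adjusted p = 0.0121) and from 5.71 ± 0.271 to 14.4 ± 1.28 FPKM in β8ITG-cKO (1.20, SE 0.10, adjusted p = 9.55e-05). The deposited locus of Trp53 (69561754 to 69591873) is merged with that of its head-to-head neighbour Wrap53, which rose as well, by 0.81 in WT (adjusted p = 0.0284) and 0.69 in β8ITG-cKO (adjusted p = 0.0256), on the log2 scale. The pseudogene Trp53-ps, which could share reads with Trp53, was at 0.03 FPKM at most.

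Mdm2 encodes the ligase that marks p53 for degradation and is itself a p53 target. It was at 11.14, 9.96 and 9.46 FPKM in WT 0 h and 13.19, 14.41 and 12.01 in WT 24 h, and at 8.58, 8.14 and 8.32 in β8ITG-cKO 0 h and 11.53, 12.49 and 11.57 in β8ITG-cKO 24 h. The 24 h libraries lay above the 0 h libraries in both genotypes, by a small step. It rose in β8ITG-cKO LCs, 1.42-fold from 8.35 ± 0.223 to 11.9 ± 0.542 FPKM (log2 difference 0.46, SE 0.09, adjusted p = 0.0044), but not when libraries were rescaled to the same median (0.19, adjusted p = 0.13). In WT LCs the difference was 0.34 (95% CI 0.02 to 0.67) and did not pass the test (adjusted p = 0.0985), except in 1 fit over all groups (adjusted p = 0.0203).

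Cdkn1a encodes p21, an inhibitor of cyclin-dependent kinases that stops cells before S phase, and lies on chromosome 17 from 29090979 to 29100722. It was at 2.41, 2.97 and 1.65 FPKM in WT 0 h and 7.25, 9.67 and 6.82 in WT 24 h. In β8ITG-cKO LCs it was at 1.29, 0.55 and 0.55 FPKM at 0 h and 9.89, 6.79 and 8.82 at 24 h. The 24 h libraries of the genotypes covered the same range, while at 0 h every β8ITG-cKO library was below every WT library. In WT the mean rose 3.37-fold, from 2.35 ± 0.66 to 7.91 ± 1.53 FPKM (log2 difference 1.42, SE 0.21, adjusted p = 0.00277). In β8ITG-cKO it rose 10.7-fold, from 0.796 ± 0.424 to 8.50 ± 1.58 FPKM (2.41, SE 0.20, adjusted p = 8.09e-05). Both calls held under every alternative run and without any 1 library.

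Ccng1 encodes cyclin G1, a p53 target that brings a phosphatase to Mdm2, and was the most abundant of the 10 genes. It was at 23.26, 31.45 and 16.48 FPKM in WT 0 h, 25.77, 19.60 and 15.57 in WT 24 h, 29.13, 19.09 and 21.44 in β8ITG-cKO 0 h, and 17.30, 22.38 and 18.61 in β8ITG-cKO 24 h. All 4 groups overlapped. The log2 differences after surgery were -0.20 (95% CI -0.80 to 0.41) in WT and -0.23 (-0.62 to 0.16) in β8ITG-cKO, so a rise of the size seen for Cdkn1a lay outside both intervals. Rescaling to the same median gave -0.52 in β8ITG-cKO (adjusted p = 0.0307).

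Bax, on chromosome 7, encodes a BCL2-family protein that opens the outer mitochondrial membrane in apoptosis. It was at 6.13, 5.61 and 8.25 FPKM in WT 0 h, 12.70, 24.10 and 13.42 in WT 24 h, 8.96, 9.53 and 7.54 in β8ITG-cKO 0 h, and 14.33, 14.01 and 10.48 in β8ITG-cKO 24 h. The 24 h libraries lay above the 0 h libraries in each genotype, and WT 24 h replicate 2 was the highest of all. Bax rose 2.51-fold in WT (log2 difference 1.17, SE 0.26, adjusted p = 0.0132), where leaving out WT 0 h replicate 1 gave an adjusted p of 0.0506. It rose 1.49-fold in β8ITG-cKO (0.52, SE 0.14, adjusted p = 0.02). That call was lost without β8ITG-cKO 0 h replicate 3 (adjusted p = 0.0733), without 24 h replicate 1 (0.0641) or 2 (0.0687), after rescaling (0.25, adjusted p = 0.269) and in 1 fit over all groups (adjusted p = 0.0832).

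Bbc3 encodes PUMA, a BH3-only protein that triggers apoptosis by neutralizing anti-apoptotic BCL2 proteins. It was low throughout, at 2.02, 2.07 and 2.23 FPKM in WT 0 h, 0.80, 0.74 and 2.67 in WT 24 h, 0.59, 1.27 and 0.71 in β8ITG-cKO 0 h, and 1.71, 1.21 and 1.40 in β8ITG-cKO 24 h. The WT 24 h libraries fell on both sides of the WT 0 h libraries, with replicate 3 alone above them. Neither change after surgery passed the test, at -0.46 in WT (95% CI -1.14 to 0.22, adjusted p = 0.267) and 0.40 in β8ITG-cKO (95% CI 0.00 to 0.81, adjusted p = 0.0917). Without WT 24 h replicate 3 the WT difference was -0.81 (adjusted p = 0.0126), and without β8ITG-cKO 0 h replicate 2 the β8ITG-cKO difference was 0.56 (adjusted p = 0.0335).

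Phlda3 encodes a pleckstrin-homology protein that competes with Akt for the membrane and so lowers survival signalling. It was at 4.13, 2.39 and 3.51 FPKM in WT 0 h, 18.38, 22.23 and 8.72 in WT 24 h, 5.15, 6.90 and 4.70 in β8ITG-cKO 0 h, and 15.96, 17.14 and 16.30 in β8ITG-cKO 24 h. All 24 h libraries were above all 0 h libraries. Phlda3 had the largest log2 difference of the 10 genes in WT, where its mean rose 4.92-fold from 3.34 ± 0.88 to 16.4 ± 6.96 FPKM (1.93, SE 0.33, adjusted p = 0.00485). In β8ITG-cKO it rose 2.95-fold from 5.58 ± 1.16 to 16.5 ± 0.606 FPKM (1.42, SE 0.13, adjusted p = 0.000158).

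Trp53inp1 encodes a nuclear p53 target that modulates p53 and autophagy, and it was the 1 gene of the 10 that fell. It was at 4.08, 5.44 and 4.70 FPKM in WT 0 h, 1.58, 1.64 and 3.16 in WT 24 h, 6.24, 3.65 and 5.17 in β8ITG-cKO 0 h, and 2.05, 1.80 and 2.40 in β8ITG-cKO 24 h. Every 24 h library was below every 0 h library. It decreased by 0.95 on the log2 scale in β8ITG-cKO (SE 0.18, adjusted p = 0.00377), from 5.02 ± 1.3 to 2.08 ± 0.304 FPKM. In WT it decreased by 0.91 (SE 0.22, adjusted p = 0.0203), from 4.74 ± 0.681 to 2.13 ± 0.897 FPKM. The WT call was lost without WT 0 h replicate 2 (adjusted p = 0.0662) or 3 (0.0576), without WT 24 h replicate 1 (0.0598) or 2 (0.0693), and without a filter on low values (0.0603).

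Sesn2 encodes sestrin 2, which restrains mTORC1 and limits oxidative stress, and responds to ATF4 as well as to p53. It was at 0.48, 0.87 and 0.47 FPKM in WT 0 h, 1.57, 4.20 and 3.82 in WT 24 h, 0.88, 0.74 and 0.35 in β8ITG-cKO 0 h, and 2.91, 2.16 and 1.88 in β8ITG-cKO 24 h. The 24 h libraries were above all 0 h libraries, and WT 24 h replicate 1 was the lowest of them. Sesn2 rose 5.24-fold in WT (log2 difference 1.32, SE 0.29, adjusted p = 0.0126, and 0.0504 without a filter on low values) and 3.53-fold in β8ITG-cKO (1.0, SE 0.18, adjusted p = 0.00309).

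Gdf15 encodes a secreted TGF-β superfamily cytokine released by stressed cells. It was at 2.70, 2.23 and 1.35 FPKM in WT 0 h, 2.25, 3.63 and 0.68 in WT 24 h, 0.21, 0.67 and 1.01 in β8ITG-cKO 0 h, and 3.71, 2.85 and 1.01 in β8ITG-cKO 24 h. The WT groups overlapped, and the highest β8ITG-cKO 0 h library equalled the lowest 24 h library to 2 decimals. The difference was -0.05 in WT (95% CI -0.90 to 0.80, adjusted p = 0.929) and 1.05 in β8ITG-cKO (SE 0.33, adjusted p = 0.0317). The β8ITG-cKO call was lost without any 1 of 4 libraries, 0 h replicates 1 (adjusted p = 0.0952) and 2 (0.0694) and 24 h replicates 1 (0.0968) and 2 (0.0917). It was also lost without a filter on low values (0.0944), after rescaling (0.0701) and with a replicate block (0.0584).

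**Figure D3:**
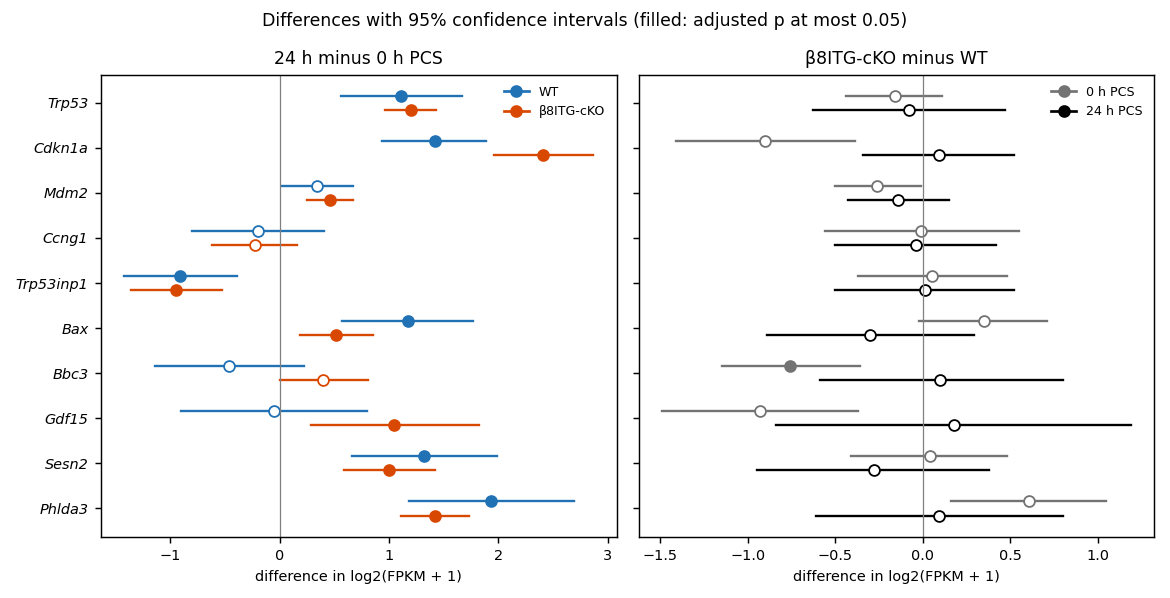
Differences in log2(FPKM + 1) with 95% confidence intervals from limma, 24 h minus 0 h in each genotype (left) and β8ITG-cKO minus WT at each time (right), with filled points for an adjusted p of at most 0.05. Changes after surgery run from -0.95 for Trp53inp1 to 2.41 for Cdkn1a in β8ITG-cKO LCs, while of the genotype differences only Bbc3 at 0 h is filled.

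The second question is whether the genotypes differed before and after the response. At 0 h 1 of the 10 genes was called, Bbc3, which was lower in β8ITG-cKO LCs, against 6.94% of the 14708 genes tested. None met the study's criteria, which 2.52% of tested genes met. Groups did not overlap for 5 of the 10, against 30.8% of tested genes. The same 5 had an unadjusted p under 0.05 with limma. The share of all tested genes at that level is not reported here, so this count is no result about the 10 genes. Cdkn1a, Bbc3, Gdf15 and Mdm2 had their β8ITG-cKO values below the WT values, and Phlda3 had them above. The median log2 difference was -0.08 over the 10 genes and 0.02 over all tested genes.

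Bbc3 was at 0.859 ± 0.362 FPKM in β8ITG-cKO 0 h against 2.11 ± 0.112 in WT 0 h, a log2 difference of -0.76 (SE 0.17, adjusted p = 0.0396). This call was lost without any library but β8ITG-cKO 0 h replicate 2 (adjusted p from 0.0759 to 0.148), without a filter on low values (0.12), in 1 fit over all groups (0.1) and with a replicate block (0.0934). Cdkn1a was 2.95-fold lower in mean (log2 difference -0.90, SE 0.22) and missed the threshold (adjusted p = 0.0505). It passed with a pseudocount of 0.5 (adjusted p = 0.0495), after rescaling (0.035), in 1 fit over all groups (0.0288) and without β8ITG-cKO 0 h replicate 1 (0.0488). Gdf15 differed by -0.93 (SE 0.24, adjusted p = 0.0618), Phlda3 by 0.61 (SE 0.19, adjusted p = 0.104) and Mdm2 by -0.26 (SE 0.11, adjusted p = 0.19). Trp53 itself differed by -0.16 (95% CI -0.44 to 0.11). All 5 red blood cell markers were called lower in β8ITG-cKO 0 h than in WT 0 h, and their part in these values was not tested.

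At 24 h none of the 10 genes differed between the genotypes with limma, at an unadjusted p under 0.05 for 0 of them and adjusted p from 0.556 to 0.983. Of 15366 genes tested, 6.29% were called, 3.66% met the study's criteria and 26.5% did not overlap, while the groups overlapped for all 10 genes. The interval was narrowest for Mdm2, whose difference of -0.14 had a 95% CI of -0.43 to 0.15. For Cdkn1a the difference was 0.09 (-0.34 to 0.52), for Trp53 -0.08 (-0.63 to 0.47) and for Phlda3 0.09 (-0.61 to 0.80). The interval was widest for Gdf15 (0.18, -0.84 to 1.19), which reached past 1 on the log2 scale toward higher values in β8ITG-cKO. All 10 retina markers were called higher in β8ITG-cKO at 24 h, so the libraries compared there differed in marker content, and the part of this in the values was not tested.

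Whether the change after surgery differed between the genotypes was tested over all 12 libraries by the genotype by time interaction. With limma 0 of the 10 genes passed, against 9.39% of 15262 genes tested. An unadjusted p under 0.05 was found for 2, a count without the share over all tested genes and so a description. The largest value was that of Gdf15, at 1.11 (SE 0.55, adjusted p = 0.242), with an interval that included 0 (95% CI -0.09 to 2.3). The largest values with an interval above 0 were those of Cdkn1a, at 0.99 (SE 0.30, 95% CI 0.34 to 1.65, adjusted p = 0.0589), and Bbc3, at 0.86 (SE 0.36, adjusted p = 0.164). For Cdkn1a the adjusted p was 0.0416 with a pseudocount of 0.1, 0.0466 with 0.5 and 0.0379 after rescaling. It was 0.034 without WT 0 h replicate 3, 0.0465 without WT 24 h replicate 2 and 0.0345 without β8ITG-cKO 0 h replicate 1. Without WT 24 h replicate 3, Bbc3 passed at 1.21 (adjusted p = 0.0117) and Phlda3 at -0.89 (adjusted p = 0.0438). Trp53, at 0.08 (95% CI -0.51 to 0.68), and Trp53inp1, at -0.04 (-0.69 to 0.61), were near 0, with intervals that reached past 0.5 on both sides.

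The spread between libraries was unequal. WT 24 h replicate 3 lay farthest from the other 2 libraries of its group for 6 of the 10 genes: Trp53, Mdm2, Trp53inp1, Bbc3, Gdf15 and Phlda3. In each of these the WT 24 h replicate 3 value was on the side of the 0 h libraries or beyond them. The same library had the highest sum of corneal epithelium markers in its group, at 55.7 FPKM against 12.1 and 4.35, of which Krt15 made up 46.38. Krt5 (6.88), Krt14 (2.12) and Upk1b (0.30) were also highest there. Krt12 of that list went the other way, at 0.0 FPKM against 4.62 in WT 24 h replicate 1 and 0.13 in replicate 2. WT 24 h replicate 3 was also the lowest of its group for the proliferation genes Mki67 (1.31 FPKM against 26.98 and 4.46) and Pcna (14.77 against 56.65 and 36.45). The part of either in these values was not tested. The coefficient of variation of Phlda3 was 42.3% in WT 24 h and 3.68% in β8ITG-cKO 24 h, and that of Trp53 was 31.6% and 8.90%. Mdm2 was the steadiest gene, at 2.67% to 9.10% in the 4 groups, and Gdf15 varied by 32.7% to 67.6%.

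FPKM is a level per transcript length, so it also orders the genes within a group. Ccng1 led in all 4 groups, with means of 19.4 to 23.7 FPKM. At 0 h it was clear of the next gene, which was Mdm2 in WT (10.2 FPKM) and Bax in β8ITG-cKO (8.68 FPKM). At 24 h in WT, Ccng1, Bax (16.7), Phlda3 (16.4), Trp53 (15.8) and Mdm2 (13.2) each overlapped their neighbour in this order. In β8ITG-cKO 24 h, Ccng1 (19.4), Phlda3 (16.5) and Trp53 (14.4) did not overlap, and Trp53, Bax (12.9) and Mdm2 (11.9) did. Cdkn1a moved from 0.796 FPKM, eighth in β8ITG-cKO 0 h and overlapping Bbc3 and Sesn2, to 8.50 FPKM, sixth and clear of both neighbours, at 24 h. Sesn2, Gdf15 and Bbc3 stayed at or under 3.19 FPKM in mean in every group.

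The rest of the pathway was read from 13 p53 regulators (damage kinases, the Mdm2 partner Mdm4, other ligases, the phosphatase gene Ppm1d and the p53 relatives Trp63 and Trp73, among others) and 30 other p53 targets. Of the regulators, 11 could be tested over time. Atr and Atm, which encode the kinases that signal DNA damage to p53, rose in both genotypes. Atr was at 2.69, 2.76 and 2.82 FPKM in WT 0 h and 8.16, 5.84 and 4.97 in WT 24 h, a log2 difference of 0.94 (adjusted p = 0.00904), and rose by 0.54 in β8ITG-cKO (adjusted p = 0.0185). Atm rose by 0.86 (adjusted p = 0.0196) and 0.44 (adjusted p = 0.0169). In all, 2 of the 11 regulators rose and 1 fell in WT, where 20.9% of all tested genes rose, and 7 rose and 0 fell in β8ITG-cKO, where 35.4% of all tested genes rose. Between the genotypes 0 of 9 were called at 0 h with limma (1 at an unadjusted p under 0.05), against 6.94% of all tested genes. The Atm call was lost in 6 of 15 alternatives in WT and in 5 in β8ITG-cKO, and the Atr call in 0 and 5.

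The regulator that fell in WT was Ppm1d, the gene of the Wip1 phosphatase that turns off p53 signalling. It was at 3.24, 4.78 and 3.70 FPKM in WT 0 h, 2.44, 2.15 and 2.40 in WT 24 h, 3.54, 3.21 and 3.56 in β8ITG-cKO 0 h, and 4.68, 4.44 and 4.55 in β8ITG-cKO 24 h. Its 24 h libraries were below those at 0 h in WT and above them in β8ITG-cKO. The log2 difference was -0.55 in WT (adjusted p = 0.0451) and 0.33 in β8ITG-cKO (adjusted p = 0.0319), and the interaction was 0.87 (SE 0.18, adjusted p = 0.0138). At 24 h Ppm1d was higher in β8ITG-cKO by 0.74 (SE 0.13, adjusted p = 0.0155), and so were all 10 retina markers, whose part in this value was not tested. The Ppm1d call was lost in 9 of 15 alternatives over time in WT, in 10 in β8ITG-cKO and in 5 at 24 h, and the interaction in 1 of 20.

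Of the other p53 targets, 26 could be tested over time. In WT 9 rose, 1 fell and 16 did not pass, with a median of 0.46. In β8ITG-cKO 13 rose, 1 fell and 12 did not pass, with the same median of 0.46, against medians of 0.16 and 0.23 and rises of 20.9% and 35.4% for all tested genes. Cgref1, a growth regulator, rose from 1.36 ± 0.168 to 9.52 ± 1.09 FPKM in WT (2.16, adjusted p = 0.000174) and from 1.82 ± 1.13 to 9.42 ± 1.68 in β8ITG-cKO (1.94, adjusted p = 0.000786). Eda2r, a death-domain receptor, was at 0.02 to 0.09 FPKM in β8ITG-cKO 0 h and 1.95 to 2.82 at 24 h (1.61, adjusted p = 0.000133). It rose in WT as well, from 0.0224 ± 0.0389 to 1.91 ± 1.05 FPKM (1.43, adjusted p = 0.00997). The target that fell was Sesn1, the sestrin relative of Sesn2, which went from 13.7 ± 3.86 to 5.31 ± 1.67 FPKM in WT (-1.22, adjusted p = 0.00967). In β8ITG-cKO Sesn1 went from 17.1 ± 2.45 to 5.87 ± 0.435 FPKM (-1.39, adjusted p = 0.000115), so the sestrin genes moved in opposite directions in both genotypes.

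Plk2, a polo-like kinase gene induced by p53 and by serum, had the largest log2 difference between the genotypes at 0 h among the targets called there. It was at 7.92, 5.77 and 6.85 FPKM in WT 0 h, 27.37, 54.09 and 18.06 in WT 24 h, 0.44, 0.88 and 0.50 in β8ITG-cKO 0 h, and 19.73, 21.99 and 18.30 in β8ITG-cKO 24 h. As for Cdkn1a, the 24 h groups overlapped while every β8ITG-cKO 0 h library was below every WT 0 h library. The 0 h difference was -2.29 (SE 0.17, adjusted p = 0.000905), and the interaction was 1.73 (SE 0.42, adjusted p = 0.0261). Gadd45a, a growth-arrest and DNA-repair gene, was at 13.91, 7.25 and 8.54 FPKM in WT 0 h against 3.07, 2.74 and 3.31 in β8ITG-cKO 0 h (-1.39, SE 0.21, adjusted p = 0.0148), with an interaction of 1.06 (SE 0.30, adjusted p = 0.0462). These were the 2 of 23 tested targets called at 0 h, both lower in β8ITG-cKO, where 6.94% of all tested genes were called in either direction. A count this near that share is no result about the targets. The call was lost in 0 of 15 alternatives for Plk2 and in 4 for Gadd45a. At 24 h 1 of 27 was called, against 6.29% of all tested genes. It was Perp, a desmosome and apoptosis gene, which was lower in β8ITG-cKO by 0.62 on the log2 scale (adjusted p = 0.0439), at 21.7 ± 2.25 against 33.8 ± 3.47 FPKM. That call was lost in 11 of 15 alternatives.

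**Figure D4:**
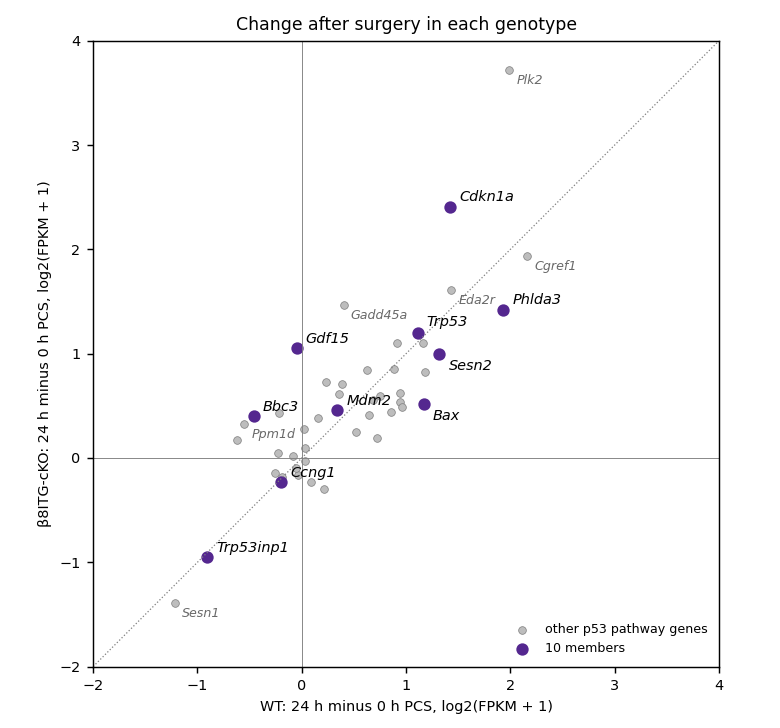
Change from 0 h to 24 h PCS in WT LCs (horizontal) and in β8ITG-cKO LCs (vertical) on the log2(FPKM + 1) scale, for the 10 genes (purple) and 37 tested genes of the other p53 lists (grey), with equal change on the dotted line. Cdkn1a (1.42 and 2.41) and Plk2 (1.99 and 3.72) lie above the line, and Trp53inp1 (-0.91 and -0.95) and Trp53 (1.11 and 1.20) lie close to it.

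Other lists describe the processes in which these genes act, and their counts stand beside rises of 20.9% of all tested genes in WT and 35.4% in β8ITG-cKO, and falls of 8.81% and 10.7%. Between the genotypes 6.94% of all tested genes were called at 0 h and 6.29% at 24 h, in either direction. Shares near these are no result about a list. Of the BCL2 family and caspases, 7 of 13 tested rose in WT, and 6 of 14 rose and 2 fell in β8ITG-cKO, with 0 called by limma between genotypes at either time (4 at 0 h and 1 at 24 h with an unadjusted p under 0.05). The genes called include both sides of cell death: Bcl2a1b, an anti-apoptotic gene of myeloid cells, rose to 3.97 ± 1.37 FPKM in WT (2.14, adjusted p = 0.00134), beside the 6 neutrophil markers called higher. In β8ITG-cKO Bcl2a1b rose to 5.11 ± 0.534 FPKM (2.34, adjusted p = 5.9e-05). Bak1, the partner of Bax in membrane permeabilization, rose 2.71-fold in WT (1.21, adjusted p = 0.00585) and 1.93-fold in β8ITG-cKO (0.80, adjusted p = 0.00307). Casp8 rose by 1.58 (adjusted p = 0.0058) and 1.54 (adjusted p = 0.000127).

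Of 12 CDK inhibitor and growth-arrest genes other than Cdkn1a, 3 rose and 1 fell in WT, and 5 rose and 1 fell in β8ITG-cKO, close to the shares over all tested genes (20.9% and 35.4% higher). Cdkn1c, the gene of the p57 inhibitor of differentiating fiber cells, fell from 51.5 ± 5.6 to 9.81 ± 2.63 FPKM in WT (-2.30, adjusted p = 0.000386) and from 48.4 ± 6.58 to 9.86 ± 3.36 in β8ITG-cKO (-2.23, adjusted p = 0.000213), beside the fall of the 7 tested lens fiber markers. At 0 h 4 of the 12 were lower in β8ITG-cKO, against 6.94% of all tested genes called in either direction. They were Gadd45g (-1.90, adjusted p = 0.00161), Sfn (-1.56, adjusted p = 0.00552), Gadd45b (-1.29, adjusted p = 0.0255) and Cdkn2b, the last named after its values were seen. The Gadd45b call was lost in 7 of 15 alternatives (adjusted p up to 0.0932), and those of Gadd45g and Sfn in 0. At 24 h 1 of the 12 was called, against 6.29% of all tested genes. It was Sfn, the gene of the cell-cycle regulator 14-3-3 sigma, at 0.32, 1.21 and 1.20 FPKM in β8ITG-cKO against 10.41, 13.08 and 5.35 in WT (-2.44, SE 0.33, adjusted p = 0.00613), a call lost in 0 of 15 alternatives. Of 21 S phase and mitosis genes, 9 of 20 tested rose in WT, led by Mcm3 (2.84, adjusted p = 0.00336). In β8ITG-cKO 17 of 21 rose. Cdkn1a rose in the same bulk libraries, and whether it rose in the same cells was not tested. At 0 h 7 of 20 were higher in β8ITG-cKO, against 6.94% of all tested genes called in either direction. Mcm6 was at 6.36 ± 0.616 against 2.51 ± 0.344 FPKM (1.07, adjusted p = 0.00603). At 24 h 0 of 21 were called by limma, against 6.29% of all tested genes, and 1 had an unadjusted p under 0.05.

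ATF4 stress-response genes share Sesn2 and Gdf15 with the p53 pathway as targets. Of 14 tested in WT, 5 rose and 1 fell, led by Asns at 2.48 (adjusted p = 0.00205), and of 13 tested in β8ITG-cKO, 9 rose and 1 fell. At 0 h 4 of 11 were lower in β8ITG-cKO and 1 was higher, Psat1, named after its values were seen. Of all tested genes 6.94% were called at 0 h, in either direction. Atf3, a stress-induced transcription factor gene, was at 46.69, 28.57 and 8.99 FPKM in WT 0 h and 0.38, 0.12 and 0.17 in β8ITG-cKO 0 h (-4.30, SE 0.49, adjusted p = 0.00457). At 24 h it was at 3.58 to 11.08 FPKM in WT and 8.31 to 11.49 in β8ITG-cKO.

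The genes whose profile over the 12 libraries was most like that of Cdkn1a, by the root mean square difference of centred log2(FPKM + 1) over 7290 genes, were Ifitm10 (0.218), Map1b (0.30), Tbc1d1 (0.308) and Slc6a8 (0.311). Among the other 9 genes described here Trp53 was the nearest (0.536), followed by Sesn2 (0.579) and Phlda3 (0.662), and Trp53inp1 was the farthest (1.488). The means of Ifitm10 were 4.74 and 16.4 FPKM in WT at 0 h and 24 h and 2.27 and 13.9 in β8ITG-cKO. It was chosen for its likeness to Cdkn1a over these libraries, so its levels are a description.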

How the data were processed

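RNA of 12 libraries, 3 per group, was analysed. The authors made stranded total RNA libraries and had Cuffdiff compute FPKM per library, deposited in 4 tables, 1 per pair of conditions. The submitters' processing notes name cutadapt 1.12, FastQC, TopHat2 2.1.0 and Cuffdiff 2.2.1. The genome build and whether counting used strand are not given in the sources used here; 90.0% of symbols were in GRCm38 RefSeq and 99.5% of those overlapped its position. A library had the same FPKM in every table. The authors' group values (16 columns), fold changes, p and q values were not used.

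limma 3.58.1 (R 4.3.3; trend and eBayes) was run for each pair of groups on log2(FPKM + 1), keeping genes whose mean reached 0.5 FPKM, with Benjamini-Hochberg adjustment over all genes and calls at an adjusted p of at most 0.05; fold changes of low genes are understated on this scale. The interaction used all 12 libraries. Shares of all tested genes at an unadjusted p under 0.05 are not reported here, so counts of genes at that level are a description. The fits were tested on simulated data. Tables and figures used Python 3.11.15, pandas 2.3.3, numpy 2.4.6 and matplotlib 3.10.9.

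The members, lists and markers were chosen with earlier results of these data known. Named genes are the 10 members, up to 3 called genes with the largest log2 difference per other list and comparison with at least 2 FPKM in 1 group, Itgb8, and the 5 genes most like Cdkn1a with a mean of at least 5 FPKM, of which 1 is not reported here. Wrap53, Trp53-ps, Cdkn2b and Psat1 were added after their values were seen. Cop1 of the regulator list was matched by its older symbol Rfwd2. Marker lists for macrophages, corneal epithelium, corneal stroma and pigment cells were summed as well: highest sums in any library were 43.6, 55.7, 26.1 and 83.7 FPKM.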

Additional observations from a re-analysis of the deposited data

Results flagged for a closer look

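None of the 10 genes was singled out by a change that differed between the genotypes with an adjusted p of at most 0.05. By the interaction in limma, 3 of 37 tested other p53 genes were called, 1 of 12 growth-arrest genes, 0 of 14 cell-death genes and 0 of 21 S phase genes. Of 14 ATF4 genes, 3 were called higher and 1 lower, and 9.39% of all 15262 tested genes were called. Genes of these lists were named because they were called, so their number is no result. The change from 0 h to 24 h PCS differed between WT and β8ITG-cKO LCs in 8 genes so named. The β8ITG-cKO change was the higher in 7 of them and the lower in Psat1, a serine synthesis gene (-1.18, adjusted p = 0.00724), which was named after its values were seen. An interaction does not say at which time the genotypes differed. At 0 h Atf3, Plk2, Cebpb, Gadd45a and Gadd45b were called lower in β8ITG-cKO and Psat1 higher, and at 24 h none of these was called. Mean Atf3 went from 28.1 to 8.26 FPKM in WT and from 0.227 to 9.48 in β8ITG-cKO. Ddit4 was called at neither time, and Ppm1d only at 24 h. The interaction was 4.59 for Atf3 (adjusted p = 0.00537), which kept its call in all 20 alternatives. It was 0.87 for Ppm1d (adjusted p = 0.0138), lost in 1 of 20 alternatives, and 1.73 for Plk2 (adjusted p = 0.0261), lost in 8. It was 2.1 for Ddit4, an mTORC1 inhibitor gene (adjusted p = 0.0379), lost in 13, and 1.47 for Cebpb (adjusted p = 0.0394), lost in 11. It was 1.06 for Gadd45a (adjusted p = 0.0462) and 1.36 for Gadd45b (adjusted p = 0.0481), each lost in 14 of 20. In Ppm1d the change was downward in WT and upward in β8ITG-cKO, with no overlap between times in either genotype.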

How the results depend on the processing

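Alternatives for the 10 genes were a stricter threshold, pseudocounts of 0.1 and 0.5, no filter or a mean of at least 2 FPKM, rescaling to the same median, 1 fit over all groups, eBayes without trend, a replicate block and each library left out. At an adjusted p of at most 0.01, 2 of the 10 genes were called in WT over time, 2 met the study's criteria there and 0 were called between genotypes at 0 h. At 0 h, 0 were called with no filter, with a mean of at least 2 FPKM (which Bbc3 does not reach) and with the replicate block, 2 with a pseudocount of 0.5 and 2 after rescaling. The interaction was called for 1 of the 10 with a pseudocount of 0.1, 1 with 0.5 and 1 after rescaling. Leaving out 1 library gave 5 to 7 calls in WT over time (4 to 6 by the criteria), 6 to 8 in β8ITG-cKO, 0 to 1 at 0 h, 0 at 24 h and 0 to 2 for the interaction.

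Of the 43 other p53 pathway genes, 13 were called in WT over time, against 8 at the stricter threshold, 8 with no filter and 8 to 17 without 1 library. In β8ITG-cKO 21 were called, against 12 at the stricter threshold, 12 with a mean of at least 2 FPKM and 13 to 20 without 1 library. At 0 h 2 were called, against 1 at the stricter threshold, 1 with no filter and 1 to 3 without 1 library. At 24 h 2 were called, against 0 at the stricter threshold, 0 with the replicate block, 1 each with no filter, a mean of at least 2 FPKM, rescaling and no trend, and 0 to 2 without 1 library. For the interaction 3 were called, against 0 at the stricter threshold, 1 with no filter and 1 to 4 without 1 library.

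Signs turned only in values that had not passed the test. At 24 h between genotypes Trp53inp1 was -0.04 after rescaling. Without 1 library, WT over time ranged from -0.42 to 0.02 for Ccng1 and -0.38 to 0.35 for Gdf15. The 0 h difference ranged from -0.23 to 0.21 for Ccng1, -0.09 to 0.23 for Trp53inp1 and -0.06 to 0.18 for Sesn2. The 24 h difference ranged from -0.36 to 0.08 for Trp53, -0.01 to 0.23 for Cdkn1a, -0.21 to 0.14 for Ccng1, -0.11 to 0.24 for Trp53inp1, -0.08 to 0.46 for Bbc3, -0.23 to 0.54 for Gdf15 and -0.28 to 0.35 for Phlda3. The interaction ranged from -0.19 to 0.24 for Trp53, -0.25 to 0.19 for Ccng1 and -0.21 to 0.18 for Trp53inp1.

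Replicate numbers did not pair the samples (correlations of same-numbered deviations from -0.22 to 0.08), and the block ended the calls of Bbc3 at 0 h (adjusted p = 0.0934) and Gdf15 over time in β8ITG-cKO (0.0584) among the 10 genes. The same alternatives for 57 values of other named genes were chosen after seeing the data: of 888 settings, 726 kept the call, 162 lost it and 0 turned its sign. Apart from constructions named above, the cause of these shifts was not tested. Rescaling moved the median of all genes from 0.16 to -0.05 in WT and from 0.23 to 0.00 in β8ITG-cKO over time. Values of a few FPKM or less are limited by the pseudocount and by an unknown number of reads: those of Bbc3, Gdf15 and Sesn2, and those of Cdkn1a at 0 h (0.796 FPKM in β8ITG-cKO), on which its rise, 0 h difference and interaction rest.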
